A study of Drosophila melanogaster with 6 samples.

Results

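Prophenoloxidase and hemocyte genes were described here as 4 genes, PPO1, PPO2, Pxn and Hml, found by their FlyBase symbols among the 3326 genes of the deposited comparison. They were chosen because earlier results of the same comparison showed them lower after loss of Domino in cells sorted for a neuroblast driver, so their ratios are given as a description. Wandering larval brains of Drosophila melanogaster were dissected, and live cells with GFP were sorted. There were 3 dom knockdown libraries, whose larvae carried a UAS::dom-RNAi hairpin from w1118 fathers, and 3 wild type libraries, whose fathers were w1118 without the hairpin. The mothers of both groups brought UAS::Dcr-2, which strengthens RNA interference, the insc::Gal4 driver and the membrane reporter UAS::CD8-GFP. The wild type had no control hairpin, so the groups also differ in carrying such a transgene. The driver works in the neural stem cells of the brain, the neuroblasts, and GFP can persist in their progeny. The labels do not give how many brains went into a sort or whether replicate sorts used different larvae, and the p-values then measure only the spread between these sorts. Of 5 neuroblast markers wor was in the table and dpn, ase, mira and insc were not, so the label of the sort cannot be checked on their levels.

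Hemocytes are the blood cells of the fly. Plasmatocytes are the phagocytes among them, and they also secrete matrix and clotting proteins. Crystal cells store prophenoloxidases, inactive copper enzymes that serine proteases cleave into phenoloxidases, which oxidise phenols on the way to melanin at wounds and on parasites. Lamellocytes, which encapsulate parasites, are rare in healthy larvae. The 4 genes divide between the first 2 types. PPO1 and PPO2 encode the prophenoloxidases of crystal cells, Pxn encodes peroxidasin, a secreted haem peroxidase that crosslinks collagen IV in basement membranes, and Hml encodes Hemolectin, a large clotting protein of plasmatocytes.

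All 4 genes were lower in the knockdown than in the wild type in the authors' deposited table. PPO1 was 27.4-fold lower, PPO2 2.85-fold, Pxn 2.27-fold and Hml 1.74-fold. The table lists only genes with an adjusted p below 0.05, which were 28.0% of the 11859 genes tested, 14.2% lower and 13.9% higher. Since the genes were picked from this comparison, nothing is read from 4 of 4 being lower. Without values per library, it was not examined whether each knockdown library lay below each wild type library. Libraries of sorted cells do not tell fewer cells of a type from less RNA per cell. Which cells of the sort held the RNA of these genes was not tested.

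The direction rests on the header of the ratio column, which names the control first, and on dom itself. Read that way, dom stood at 0.671 times the wild type level in the authors' deposited table. All log2 ratios below are knockdown over wild type, with the sign of the deposited column turned. If the header order were the reverse, every direction would swap.

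In the authors' deposited table PPO1 (FBgn0283437, dm6 2R:17887220-17889973, minus strand, 6 exons, 690 residues) had a mean normalized count of 117 over the 6 libraries. The authors' deposited table gave PPO1 a log2 ratio of -4.77, a standard error of 0.41, a 95% interval from -5.57 to -3.97 and an adjusted p from DESeq2 of 2.66e-29. In folds, the knockdown was at 0.0365 times the wild type level, with limits of 0.0210 and 0.0636. Of the 1680 lower genes of the table, PPO1 had the third lowest ratio. Its standard error was larger than that of most listed genes of like abundance, those with a mean within 1.5-fold of its own, of which 7 of 240 had a larger one and the median was 0.26.

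PPO2 (FBgn0033367, dm6 2R:9042261-9044709, minus strand, 4 exons, 684 residues) encodes the second crystal cell prophenoloxidase. The authors' deposited table gave it a mean normalized count of 382 and a log2 ratio of -1.51, with a standard error of 0.17, a 95% interval from -1.84 to -1.17 and an adjusted p from DESeq2 of 1.09e-16. The knockdown was thus at 0.351 times the wild type level. The intervals of the PPO1 and PPO2 ratios did not overlap, although the proteins are close in length and are made by the same cell type. The difference between these ratios was not tested, because both served to choose the genes.

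Pxn (FBgn0011828, dm6 3L:2601455-2630064, minus strand, 10 merged exon blocks, 1527 residues in its longest product) had the highest mean normalized count of the 4, 4843 in the authors' deposited table. The authors' deposited table gave Pxn a log2 ratio of -1.19, with a standard error of 0.21, a 95% interval from -1.59 to -0.78 and an adjusted p from DESeq2 of 2.17e-07. The knockdown was at 0.440 times the wild type level. The standard error was about as large as that of PPO2, in spite of the higher count. Of 540 listed genes of like abundance 10 had a larger one, and their median was 0.10. CG16986 and lncRNA:CR45660 share 3.91% of the exon bases of Pxn.

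Hml (FBgn0029167, dm6 3L:13846054-13860001, plus strand, 26 merged exon blocks, 3843 residues in its longest product) had, per the authors' deposited table, a mean normalized count of 554 and a log2 ratio of -0.80, with a standard error of 0.32 and a 95% interval from -1.43 to -0.18. The knockdown was at 0.573 times the wild type level, with limits of 0.372 and 0.884. Its adjusted p from DESeq2, 0.0435, was near the limit of the authors' deposited table, where 100 of the 3326 genes, 3.01%, had a larger one. The standard error of Hml was again larger than that of most listed genes of like abundance, with 5 of 274 above it and a median of 0.16. Genes outside the table have no standard error here, so these ranks of PPO1, Pxn and Hml hold among listed genes only. The intervals of PPO2, Pxn and Hml overlapped, and only that of PPO1 lay apart from the other 3. Overlap of intervals is not a test of a difference. The order of these ratios was not tested, because they served to choose the genes. The call of Hml was lost at an adjusted p of 0.01 and when all log2 ratios were shifted up by 0.1.

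Listed genes of low abundance were mostly higher in the knockdown, and PPO1 was not. Among the listed genes of like abundance, 63 of 240 were lower for PPO1, 26.3%. For PPO2 102 of 259 were lower, 39.4%, and for Hml 128 of 274, 46.7%. At the higher abundance of Pxn 413 of 540 were lower, 76.5%, so its direction was that of most listed genes at its level.

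**Figure D1:**
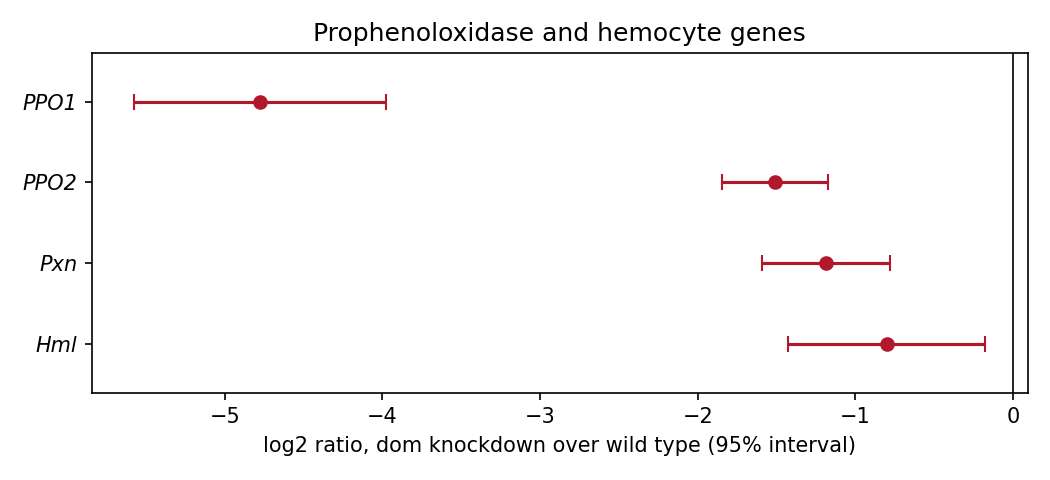
Log2 ratios of dom knockdown over wild type for the 4 genes in the authors' deposited table, with 95% intervals from the authors' standard errors. PPO1, at -4.77, lies apart from the other 3, whose intervals span -1.84 to -0.18 and all 3 overlap between -1.43 and -1.17.

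**Figure D2:**
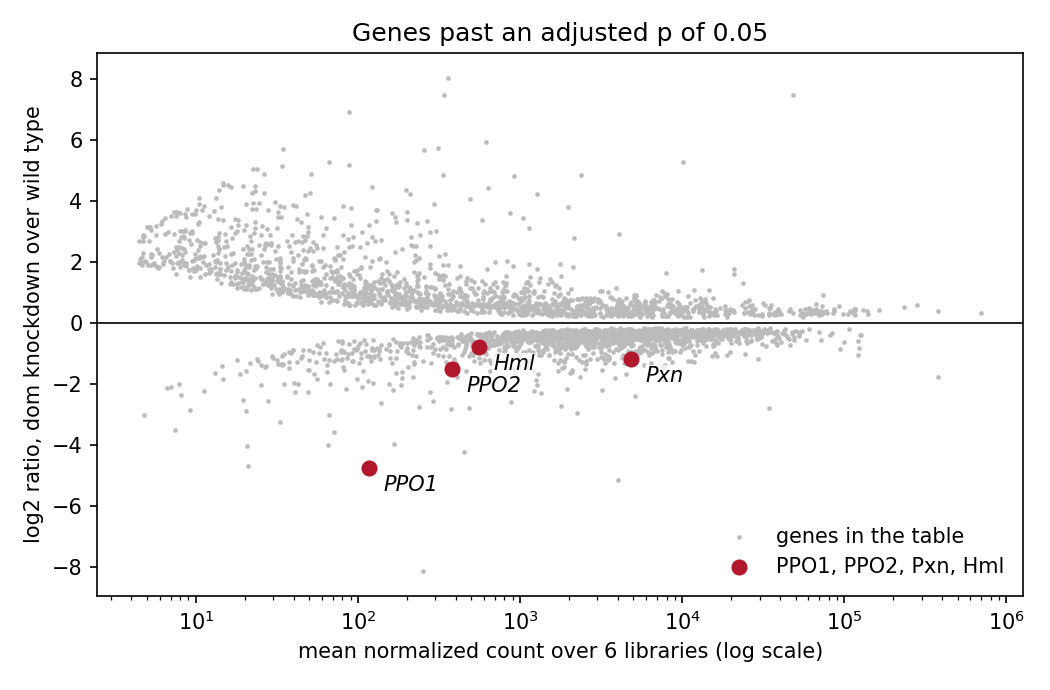
Log2 ratio of dom knockdown over wild type against mean normalized count (log scale) for the 3326 genes of the authors' deposited table, grey, with the 4 genes in red. Only genes past the adjusted p of 0.05 are shown, which leaves a gap around 0, and Hml sits near the edge of that gap.

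The 4 genes differed in abundance when exon length was taken into account. Per kb of exon, the mean normalized count over all libraries was 813 for Pxn, 167 for PPO2, 50.1 for PPO1 and 47.1 for Hml, against a median of 612 over the 3264 genes of the table with an annotated length. Hml has 11756 exon bases, and its level per length over all libraries was below those of both prophenoloxidase genes although its mean was above theirs. These means pool the genotypes. On the same scale the glial transcription factor gene repo had 632, the astrocyte gene alrm 664 and the neuroblast gene wor 3653.

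The mean over libraries and the ratio together imply a level for each genotype, if the ratio is that of the group means. For PPO1 they imply 3.54 normalized counts per kb in the knockdown and 96.7 in the wild type. PPO2 came to 87.1 in the knockdown and 248 in the wild type. Pxn came to 497 in the knockdown and 1130 in the wild type. Hml came to 34.3 in the knockdown and 59.9 in the wild type. On this scale the level of PPO2 was 24.6 times that of PPO1 in the knockdown and 2.56 times in the wild type. The knockdown value rests on a low count, since the implied PPO1 mean there was 8.27 normalized counts. The lowest mean of any listed gene over all libraries was 4.47. No interval was computed for these level ratios. The gene with the lowest implied level was PPO1 in the knockdown and Hml in the wild type. Pxn was below the implied levels of the glial genes in the knockdown, 754 for repo and 1054 for alrm, and above them in the wild type, 511 for repo and 274 for alrm. Shrinkage of the ratios, which the sources used here do not state, would change these levels.

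**Figure D3:**
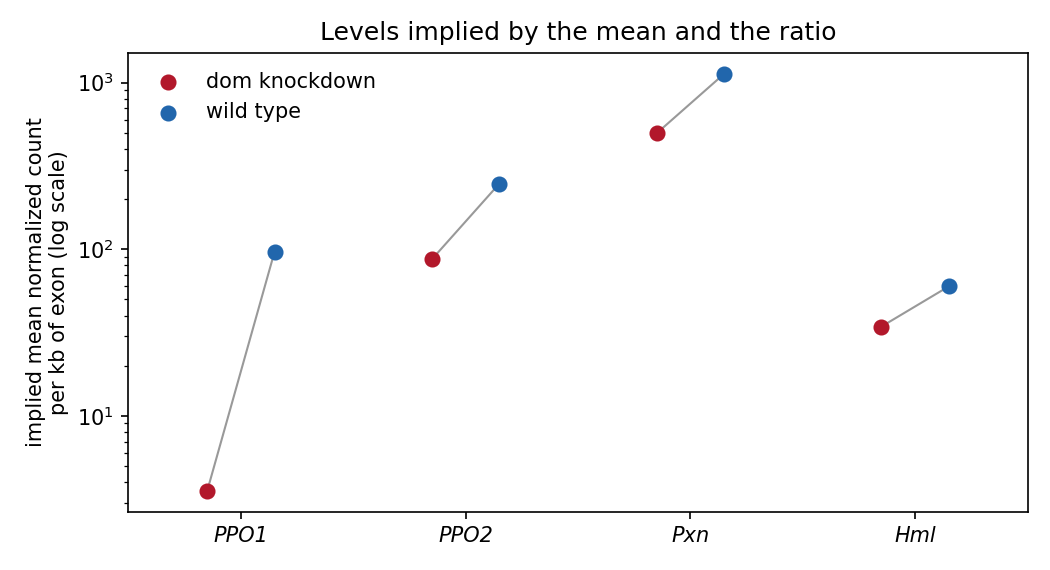
Mean normalized count per kb of exon (log scale) in the knockdown and the wild type, as implied by the mean and the ratio in the authors' deposited table. The line is steepest for PPO1, at 3.54 in the knockdown and 96.7 in the wild type, and flattest for Hml.

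The 4 genes do not share a locus. PPO1 and PPO2 lie 8.84 Mb apart on 2R and Pxn and Hml 11.2 Mb apart on 3L. Of the nearest annotated neighbours, taken on each side of each of the 4 genes, 3 were in the table and all 3 were higher. Over all genes tested 28.0% were listed and 13.9% were higher. Nothing is read from the direction of so few neighbours or from the counts in the windows below. In the authors' deposited table CG13743, whose annotation lies 140 bases from PPO2, had a log2 ratio of 0.60 with a standard error of 0.17. Tsp68C and CG8745, 737 and 25 bases from Hml, were listed in the authors' deposited table at log2 ratios of 0.42 (SE 0.14) for Tsp68C and 0.75 (SE 0.28) for CG8745. CG8745 lies on the opposite strand from Hml, and the sources used here do not say whether counting used strand. Within 20 kb of PPO1, Mapmodulin was lower and lncRNA:CR44417 and Elk were higher, 3 of 7 genes. In the window of Pxn CG12182 was lower and CG1246 higher, 2 of 15. In the window of Hml dysc and CG13737 were lower besides the 2 higher neighbours, 4 of 9.

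Other markers of crystal cells and plasmatocytes mostly were not in the table, as was the case for most genes tested. With the 4 genes included, 33.3% of each of these marker lists was listed, but the 4 were picked as listed genes. Without them, 0 of 4 crystal cell markers and 2 of 10 plasmatocyte markers were listed, against 28.0% of all genes tested. Of 6 crystal cell markers only PPO1 and PPO2 were listed. The Runx factor gene lz, which specifies crystal cells, and peb were among the 4 not listed. Of 12 plasmatocyte markers 4 were listed. Besides Pxn and Hml, the authors' deposited table listed the scavenger receptor gene crq as slightly lower (log2 -0.31, SE 0.10, DESeq2 adjusted p 0.0110). SPARC, which encodes a collagen-binding matrix protein, was listed in the authors' deposited table as higher, at a log2 ratio of 0.44 with a standard error of 0.15. The gene ex shares 15.7% of the exon bases of crq. NimC1, eater, Sr-CI, Col4a1 and vkg were among the 8 not listed. Genes outside the table either missed the threshold or were never tested, and carry no ratio here.

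Of 6 lamellocyte markers, the integrin gene ItgaPS4 and the filamin gene cher were listed in the authors' deposited table, both higher, at log2 ratios of 1.31 (SE 0.41) for ItgaPS4 and 1.01 (SE 0.28) for cher. The surface protein gene atilla and PPO3, a lamellocyte prophenoloxidase gene, were not. ItgaPS4 was rare, with a mean normalized count of 27.2 in the authors' deposited table. The higher genes were 33.3% of this short list, against 13.9% of all genes tested. Of the listed genes of like abundance 85.2% were also higher for ItgaPS4 and 42.7% for cher. A change in this cell type was not tested. Of 7 blood lineage factors the authors' deposited table listed gcm, 1.65-fold higher at a log2 ratio of 0.72 (SE 0.10, DESeq2 adjusted p 3.21e-11). It also drives glial fate, and the authors' deposited table also gave the glial markers repo and alrm as higher, at log2 ratios of 0.56 for repo and 1.94 for alrm. Whether these changes are linked was not tested. The GATA factor gene srp, which specifies blood cells, was not listed. In the lymph gland list the cadherin gene shg was higher (log2 0.46) and odd was lower (log2 -1.46), and 5 of 7 were not listed in the authors' deposited table.

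Of 12 genes for ligands that act on blood cells and their receptors 4 were listed, 33.3% against 28.0% of all genes tested. All 4 encode ligands and were higher in the knockdown, and the higher share over all genes tested was 13.9%. For upd2, upd3 and Pvf2, which had low counts, 93.3%, 88.3% and 74.0% of the listed genes of like abundance were also higher, and for Ser 46.0% were. In the authors' deposited table upd3, a cytokine gene of the JAK/STAT pathway, had a log2 ratio of 3.30 (SE 0.68) with a mean normalized count of 23.3. Its relative upd2 had a log2 ratio of 1.79 (SE 0.62) with a mean of 10.1 in the authors' deposited table. Pvf2, a growth factor of the PDGF and VEGF family, was listed as 4.12-fold higher in the authors' deposited table, at a log2 ratio of 2.04 (SE 0.41) and a DESeq2 adjusted p of 9.38e-06. The Notch ligand gene Ser, which acts in crystal cell specification, was listed 1.70-fold higher by the authors' deposited table, with a log2 ratio of 0.76 (SE 0.24). The other 8 genes were not listed, namely the ligand genes Pvf1, Pvf3 and upd1 and the receptor genes dome, Pvr, N, Egfr and Tl.

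Few genes that act around the prophenoloxidases were listed, and in both directions. The listed share was 9.1% of the proteases and serpins, 20.0% of the phenol and melanin enzymes and 25.0% of the hemocyanin superfamily. Over all genes tested it was 28.0%. The hemocyanin share is made up of PPO1 and PPO2 alone, and without them 0 of 6 were listed. Of 11 proteases and serpins of melanization and Toll activation, the serpin gene nec stood 4.33-fold above the wild type level per the authors' deposited table. Its log2 ratio there was 2.12 (SE 0.37) at a mean normalized count of 39.7. Of the listed genes of like abundance to nec 82.7% were also higher. Hayan, MP1, Sp7 and Spn27A, which act on phenoloxidase activation, were not listed. Of 10 enzymes of phenol and melanin metabolism, Ddc, which makes dopamine, was lower in the authors' deposited table, at a log2 ratio of -0.57 (SE 0.18). The tyrosine hydroxylase gene ple, which acts just before it, was higher in the authors' deposited table, at 0.58 (SE 0.23, DESeq2 adjusted p 0.0418). For Ddc 69.8% of the listed genes of like abundance were higher, and for ple 74.5%. Of the 8 hemocyanin superfamily genes, PPO1 and PPO2 were the only ones listed, and the larval serum protein genes Lsp1alpha, Lsp1beta, Lsp1gamma and Lsp2 were not.

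The few relatives and partners of Pxn and Hml that were listed were higher. Higher genes were 22.2% of the haem peroxidase list, 13.3% of the basement membrane list and 28.6% of the clotting list. Over all genes tested the higher share was 13.9%. Among listed genes of like abundance, 68.9% were also higher for Pxt, 73.8% for Irc and 74.3% for Tig. That share was 46.1% for apolpp and 29.1% for SPARC. Of 9 haem peroxidase genes 3 were listed, and Pxt and Irc were higher where Pxn was lower. In the authors' deposited table Pxt was 14.9-fold higher, at a log2 ratio of 3.89 (SE 0.21) and a DESeq2 adjusted p of 3.41e-75. Irc, an immune catalase gene, was listed 2.05-fold higher by the authors' deposited table, at 1.04 on the log2 scale (SE 0.37). Of 15 basement membrane genes, the authors' deposited table listed SPARC (log2 0.44) and the integrin ligand gene Tig (log2 0.85) as higher and Pxn as lower, and 12 were not listed, among them the laminin gene LanB1 and trol. Of 7 clotting genes, the authors' deposited table listed Tig and the lipophorin gene apolpp (log2 1.14) as higher and Hml as lower, while fon and Tg were not listed. The gene apolpp was also the only listed one of 8 fat body markers.

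Of 22 genes of the phagocytosis receptor list, which also holds Tep1, Tep2, Tep3 and Mcr, 4 were listed, 3 of them lower. That is 13.6% lower, close to the 14.2% over all genes tested. In the authors' deposited table the scavenger receptor gene Sr-CII was 2.23-fold lower (log2 -1.16, SE 0.35, DESeq2 adjusted p 0.00472). Mcr (log2 -0.34, SE 0.08) and crq were lower by less, and the authors' deposited table gave NimA as higher (log2 0.75, SE 0.27). Mcr is also a septate junction protein of epithelia and glia. Of 14 antimicrobial peptide genes the authors' deposited table listed AttB, which was higher by 0.76 on the log2 scale (SE 0.25). AttB has a near-identical copy, AttA, that can share its reads, so its value is uncertain.

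Over the 15 lists, 125 genes besides the 4 were looked up. Of these 22 were listed, 17.6% against 28.0% of all genes tested, and genes that were never tested are also among the 125. The 17 higher genes were 13.6% of the 125, against 13.9% of all genes tested, and the 5 lower genes 4.0%, against 14.2%. The median log2 ratio of the 22 was 0.76, against -0.20 over all 3326 listed genes. These medians are not matched on abundance, and the median of the mean normalized counts was 235 for the 22 and 1532 for all listed genes. The 5 lower genes were crq, Sr-CII, Mcr, odd and Ddc. The neuroblast marker wor (log2 0.61, SE 0.23), both glial markers and the fat body gene apolpp were also higher in the authors' deposited table, and their part in these counts was not tested.

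**Figure D4:**
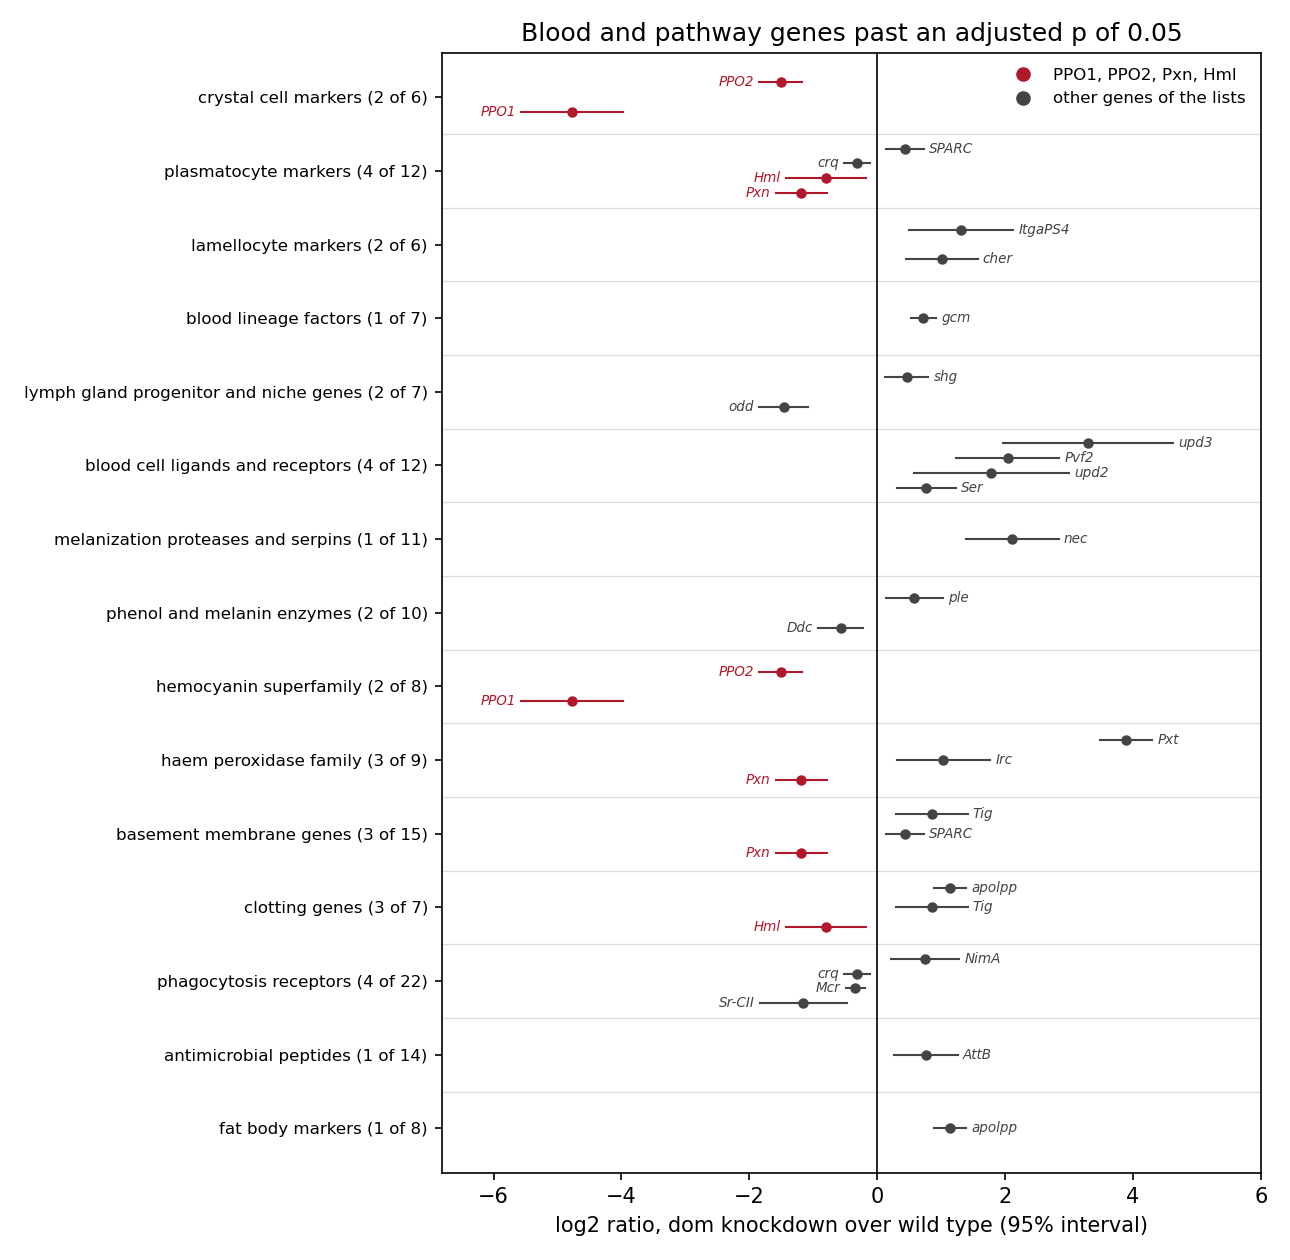
Log2 ratio of dom knockdown over wild type, with 95% intervals, for each listed gene of the 15 lists in the authors' deposited table, with the number listed of the number looked up. The 4 genes, red, are all left of 0, and 17 of the 22 others, dark grey, are right of it.

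Genes with the most similar values were taken as the 2 with the nearest log2 ratio among listed genes within 2-fold of the same mean normalized count, over 1 comparison. For PPO1 they were CG31683 (log2 -4.02) and CG31636 (log2 -3.96) in the authors' deposited table, 0.76 and 0.81 away, out of 408 candidates. PPO2 was nearest to odd (log2 -1.46), which is in the lymph gland list, and to the kinesin gene Klp54D (log2 -1.56) in the authors' deposited table. Pxn was nearest to CG1695 and to the trehalase gene Treh, and Hml to CG13893 and the homeobox gene Dbx, each within 0.02.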

How the data were processed

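RNA of sorted cells was extracted with TRIzol and sequenced after an Illumina TruSeq RNA preparation, per the labels' protocols. The submitters' processing notes name build dm6, the aligner STAR 2.3.0e, the counter HTSeq 0.6.1, DESeq2 without a version, and FastQC 0.11.2 and SAMtools 0.1.19. No source used here gives the annotation, strand setting, filters or shrinkage.

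Per the file headers, the authors deposited per gene a mean signal (normalized count averaged across libraries), a log2 ratio, its standard error, the Wald statistic, and raw and adjusted p-values. The file was read as UTF-7. It held no values per library, so depth is unknown and precision is known only through the standard error. No model was fitted. The 11859 tests were recovered from the ranks of the p-values, a step tested on simulated data (5 of 5 runs exact).

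Symbols matched 3264 of 3326 IDs, so counts in lists are minimums. Ensembl release 115 (BDGP6.54, the dm6 assembly) gave 1-based coordinates and exon lengths. Levels were compared per kb of merged exon. Genes of like abundance had means within 1.5-fold. Intervals are 95% normal limits. The members and lists were chosen with earlier results of these data known. Named genes were the 4 members, the listed genes of each list, dom, the nearest neighbours and the 2 genes of nearest ratio. Unlisted genes and other genes within 20 kb were named as examples. Python 3.11.15, pandas 2.3.3, SciPy 1.17.1 and matplotlib 3.10.9 were used.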

Additional observations from a re-analysis of the deposited data

How the results depend on the processing

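PPO1, PPO2 and Pxn kept their direction and call with the threshold on the adjusted p at 0.01 or 0.001, a mean normalized count of at least 50, a fold of at least 2, or all log2 ratios shifted by 0.1 either way. Hml kept its direction in the shifts, but its call was lost at 0.01 and 0.001, and with all ratios shifted up by 0.1, where its log2 ratio was -0.70. Its fold was under 2. Of the 17 higher genes of the lists besides the 4, 9 passed at 0.01, 6 at 0.001 and 9 at a fold of at least 2, and of the 5 lower genes 2 passed at 0.001 and 2 at a fold of at least 2. A shift of the ratios can only remove listed genes, since genes outside the table have no ratio here. No paired analysis was possible because the table holds no values per library, and for the same reason leaving out each library, other pseudocounts and other scalings were not run.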
